A study of Arabidopsis thaliana with 22 samples.

Results

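The genes described here encode the seed storage proteins of Arabidopsis and its main oil body protein, 10 of the 27416 genes counted in the tables. They are the 12S globulins CRA1 (AT5G44120), CRU2 (AT1G03880) and CRU3 (AT4G28520), the 2S albumins SESA1 (AT4G27140), SESA2 (AT4G27150), SESA3 (AT4G27160), SESA4 (AT4G27170) and SESA5 (AT5G54740), the vicilin-like globulin PAP85 (AT3G22640) and the oleosin OLEO1 (AT4G25140). The genes were chosen by their names and by measured values, because their counts in the mutant and Col-0 libraries were known when the list was made. Their levels are therefore given as a description, without a test.

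12S globulins and 2S albumins are made in the embryo during seed maturation and are packed into protein storage vacuoles, and oleosins coat the oil bodies that hold the seed's triacylglycerol. During and after germination the seedling degrades the protein and the oil, and the storage genes are held silent in vegetative tissue. Their promoters are known targets of B3-domain factors such as ABI3, FUS3 and LEC2, which bind RY elements, and of bZIP factors of abscisic acid signalling such as ABI5, which bind ABRE and G-box elements.

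Whole seedlings of 5 days, grown under 16 h light and 8 h dark, were used for RNA-seq of the T-DNA mutants ahl22 and hda15, the double mutant frs7 frs12, the triple mutant ahl22 frs7 frs12, obtained by crossing, and the wild-type accession Col-0. AHL22 is an AT-hook DNA-binding protein, FRS7 and FRS12 are FAR1-related transcription factors, and HDA15 is a histone deacetylase. Each genotype is 1 line with 2 libraries, which the study's methods call biological replicates, and the labels do not say whether these were separate plantings, so p-values measure only the spread between these libraries. Col-0 has 4 libraries, a pair shared by the ahl22, frs7 frs12 and hda15 tables (the shared Col-0 pair) and another pair in the ahl22 frs7 frs12 table (the second Col-0 pair). Total counts ranged between 12537767 and 21400580 per library, and 20850 to 23804 genes had a read. HDA15 had 68 and 59 counts in hda15, against 769 and 692 in the shared Col-0 pair, and FRS12 had 53 and 75 in frs7 frs12, against 416 and 420. FRS7 had 149 and 166 counts in frs7 frs12, against 210 and 168 in the shared pair. AHL22 had 12 and 17 counts in ahl22, against 259 and 206 in the shared Col-0 pair, but it also had only 23 and 26 in frs7 frs12 and 43 and 46 in the second Col-0 pair. In the triple mutant, AHL22 had 13 and 20 counts, FRS12 48 and 46 and FRS7 107 and 127, against 43 and 46, 531 and 582, and 200 and 283 in the second pair. The Col-0 pairs thus stood apart, so values are given against each of them.

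The 10 genes lie on chromosomes 1, 3, 4 and 5 of TAIR10.1. SESA1 to SESA4 form a tandem array of 6955 bp on chromosome 4 (13607329 to 13614283, plus strand), each with 1 exon, and SESA5 is on chromosome 5 (22238358 to 22239187, minus strand). CRA1 is at 17756238 to 17758336 of chromosome 5 (minus strand), CRU2 at 985751 to 988146 of chromosome 1 (plus), CRU3 at 14087556 to 14089796 of chromosome 4 (plus), PAP85 at 8011724 to 8013941 of chromosome 3 (minus) and OLEO1 at 12900430 to 12901577 of chromosome 4 (plus). AT4G25150 overlaps OLEO1 on the opposite strand, and the strand setting of the counting is not stated, so reads of that pair may not be separated. The coding sequences of SESA2 and SESA3, the closest pair, were 90.4% identical over 512 bp, and no member had a sequence of 150 bp or more at 95% identity or more in another gene.

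The 250 bases before each annotated gene start were searched on both strands for the RY element CATGCA, the ABRE core ACGTG and the G-box CACGTG, which contains the ABRE core on both strands. An RY element was found in 9 of the 10 promoters, compared with 8.51% of 26709 promoters of the annotation. At least 2 RY matches, overlapping ones included, were found in 8 members and in 1.68% of all promoters. The ABRE core was found in 7 members (23.1% of all promoters), the G-box in 6 (6.58%), and an RY element together with an ABRE core in 7 (2.27%). CRU2 had none of them in this window. A match is a description of the letters and not evidence of binding.

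The 2S albumin genes share an ordered block close to the gene start, a G-box with an RY element on its downstream side and, in SESA1 to SESA4, another on its upstream side. The block is shown for each gene as 46 bases aligned on the G-box, with RY elements and the G-box in capitals (RefSeq, TAIR10.1, read 5′ to 3′ on the strand of the gene), at chr4:13607244-13607289, chr4:13609256-13609301, chr4:13611709-13611754, chr4:13613509-13613554 and, on the minus strand, chr5:22239230-22239275.
SESA1: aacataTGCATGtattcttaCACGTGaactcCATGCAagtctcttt
SESA2: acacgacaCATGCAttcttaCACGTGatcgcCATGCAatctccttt
SESA3: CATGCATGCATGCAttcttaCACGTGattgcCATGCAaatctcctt
SESA4: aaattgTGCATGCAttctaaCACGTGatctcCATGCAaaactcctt
SESA5: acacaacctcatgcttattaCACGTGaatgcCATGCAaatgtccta
Of these 46 positions, 28 were identical in the tandem copies SESA1 to SESA4 and 21 in SESA1 to SESA5. SESA5 has no upstream RY match in this stretch, and its other RY matches lie 156 to 211 bases before the start.

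OLEO1 has G-boxes and RY elements in another order, at chr4:12900258-12900389 (plus strand), and CRA1 (chr5:17758480-17758532, minus strand) and PAP85 (chr3:8013950-8013987, minus strand) have RY elements without an ABRE core. These stretches are shown because they differ from the albumin block, with RY elements, ABRE cores and G-boxes in capitals. The first capitals of OLEO1 are an ABRE core outside a G-box.
OLEO1: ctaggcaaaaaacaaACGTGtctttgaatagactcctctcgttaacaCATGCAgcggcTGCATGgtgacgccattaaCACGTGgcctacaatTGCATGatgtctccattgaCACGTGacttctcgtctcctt
CRA1: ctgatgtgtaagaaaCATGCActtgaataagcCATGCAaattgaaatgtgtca
PAP85: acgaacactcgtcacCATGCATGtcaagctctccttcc

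**Figure D1:**
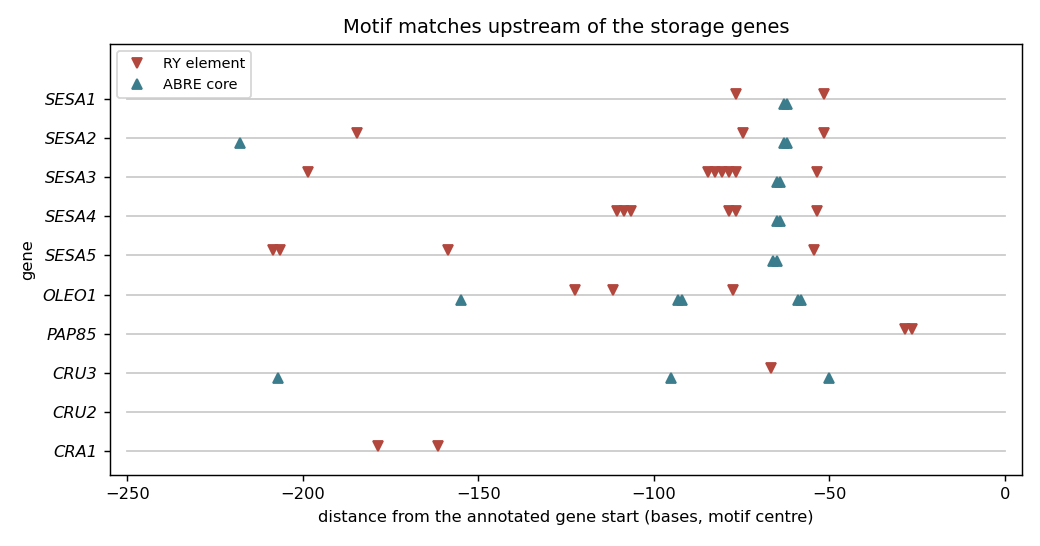
Motif matches in the 250 bases before the annotated start of each gene; the horizontal axis is the distance from the start in bases, and triangles mark the centres of RY elements and ABRE cores. The albumin genes have an ABRE core pair, which is the G-box, 60 to 68 bases before the start, with an RY element on its downstream side, and CRU2 has no match.

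The 12S globulins CRA1 and CRU3 had the highest counts of the 10 genes in Col-0 and 0 to 8 counts in every mutant library. Levels are CPM, counts scaled to the size of each library with TMM factors over all 12 libraries. CRA1 had 0.0708 and 0.501 CPM in ahl22, 0.152 and 0.111 in frs7 frs12, 0 and 0 in the triple mutant, and 0 and 0.302 in hda15, against 20.7 and 20.3 in the shared Col-0 pair and 2.50 and 2.56 in the second Col-0 pair. All 8 mutant libraries were below all 4 Col-0 libraries. CRA1 was 68.4-fold lower in ahl22 than in the shared Col-0 pair (95% counting interval 35.8 to 151, exact binomial on the pooled counts), and its fitted log2 fold change was -6.06 (standard error 0.29). In frs7 frs12 it was 159-fold lower (61.9 to 587; log2 fold change -7.22, standard error 0.35) and in hda15 146-fold lower (62.2 to 452; -7.11, standard error 0.36). Against the second Col-0 pair, CRA1 was at least 10.7-fold lower in the triple mutant, where a count of 0 was set to 3 counts per library. The intervals and this floor, which amounts to 0.157 to 0.249 CPM, cover counting error only.

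CRU3 had 0 and 0 counts in ahl22, 0 and 8 in frs7 frs12, 3 and 0 in the triple mutant, and 0 and 2 in hda15, against 405 and 307 in the shared Col-0 pair and 40 and 48 in the second. The groups did not overlap in any comparison of a mutant with a Col-0 pair. CRU3 was at least 134-fold lower in ahl22, 105-fold lower in frs7 frs12 (interval 53.0 to 244) and 481-fold lower in hda15 (133 to 3982) than in the shared Col-0 pair, and 25.1-fold lower in the triple mutant (8.32 to 124) than in the second pair. With the second pair in place of the shared pair, CRU3 was at least 14.8-fold lower in ahl22, 11.6-fold lower in frs7 frs12 (5.62 to 27.6) and 53.0-fold lower in hda15 (14.2 to 444). CRA1 was 8.46-fold lower in ahl22 (4.23 to 19.2), 19.7-fold lower in frs7 frs12 (7.38 to 74.2) and 18.1-fold lower in hda15 (7.40 to 57.2) than in the second pair.

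CRU2 was expressed weakly. It had no read in ahl22, the triple mutant or hda15 and 0 and 3 counts in frs7 frs12, against 15 and 7 in the shared Col-0 pair and 6 and 1 in the second. CRU2 was at least 4.09-fold lower in ahl22 and at least 4.84-fold lower in hda15 than in the shared Col-0 pair, and 8.65-fold lower in frs7 frs12 (2.60 to 45.2). In the triple mutant the floor allows a bound of at least 1.02-fold only against the second pair, and the counting interval began at 1.23-fold. How far CRU2 was reduced there cannot be told at this depth.

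The 2S albumins, small sulphur-rich seed proteins, had fewer counts and were also at or near 0 in the mutants. SESA1 had 0 and 0 CPM in ahl22, 0 and 0.0556 in frs7 frs12, 0 and 0.0831 in the triple mutant and 0.105 and 0 in hda15, against 3.49 and 5.51 in the shared Col-0 pair and 2.16 and 0.918 in the second. It was at least 22.5-fold lower in ahl22 and 138-fold lower in frs7 frs12 (interval 24.3 to 5500) than in the shared pair. SESA2 had 0 and 0 counts in ahl22, 0 and 1 in frs7 frs12, 5 and 0 in the triple mutant and 3 and 0 in hda15, against 117 and 69 in the shared Col-0 pair and 10 and 15 in the second. These 5 counts were in 1 library of the triple mutant, whose other library had none, and SESA2 was 4.28-fold lower there than in the second pair (interval 1.61 to 14.3). In frs7 frs12 SESA2 was 26.3-fold lower than in the second pair (4.30 to 1079). Neither SESA3 nor SESA5 had a read in ahl22, the triple mutant or hda15. SESA3 had 1 and 1 counts in frs7 frs12, against 84 and 58 in the shared Col-0 pair and 21 and 33 in the second. SESA5 had 0 and 2 counts in frs7 frs12, against 86 and 59 in the shared Col-0 pair and 21 and 21 in the second. Relative to the shared Col-0 pair, SESA3 was at least 26.7-fold lower in ahl22 and at least 31.6-fold lower in hda15. SESA5 was at least 27.2-fold lower in ahl22 and at least 32.2-fold lower in hda15. Against the second pair, ahl22 was at least 9.06-fold lower and the triple mutant at least 7.64-fold lower for SESA3. For SESA5 these bounds were at least 7.09-fold in ahl22 and at least 5.98-fold in the triple mutant.

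SESA4, the last gene of the array, was the weakest albumin. It had no count in ahl22, 0 and 4 in frs7 frs12, 1 and 0 in the triple mutant and 0 and 1 in hda15, against 10 and 5 in the shared Col-0 pair and 0 and 1 in the second. The triple mutant libraries overlapped the second Col-0 pair, at a ratio of 0.856 (counting interval 0.0109 to 67.2) of the pair over the mutant, which gives no direction.

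PAP85 and OLEO1 differed from each other in the Col-0 pairs. PAP85 had 0 and 1 counts in ahl22, 2 and 2 in frs7 frs12, 2 and 0 in the triple mutant and none in hda15, against 30 and 17 in the shared Col-0 pair and only 1 and 0 in the second. It was at least 10.4-fold lower in hda15 than in the shared pair, and 13.9-fold lower in frs7 frs12 (interval 5.07 to 53.0), while the triple mutant overlapped the second pair. OLEO1 had 1 and 0 counts in ahl22, 0 and 1 in frs7 frs12, none in the triple mutant, and 1 and 3 in hda15, against 31 and 27 in the shared pair and 16 and 9 in the second. OLEO1 was 66.2-fold lower in ahl22 (11.4 to 2658), 68.5-fold lower in frs7 frs12 (11.8 to 2750) and 19.6-fold lower in hda15 (7.26 to 74.4) than in the shared pair. Against the second pair it was 25.4-fold lower in ahl22 (4.16 to 1042), 7.52-fold lower in hda15 (2.60 to 29.7) and at least 3.59-fold lower in the triple mutant.

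**Figure D2:**
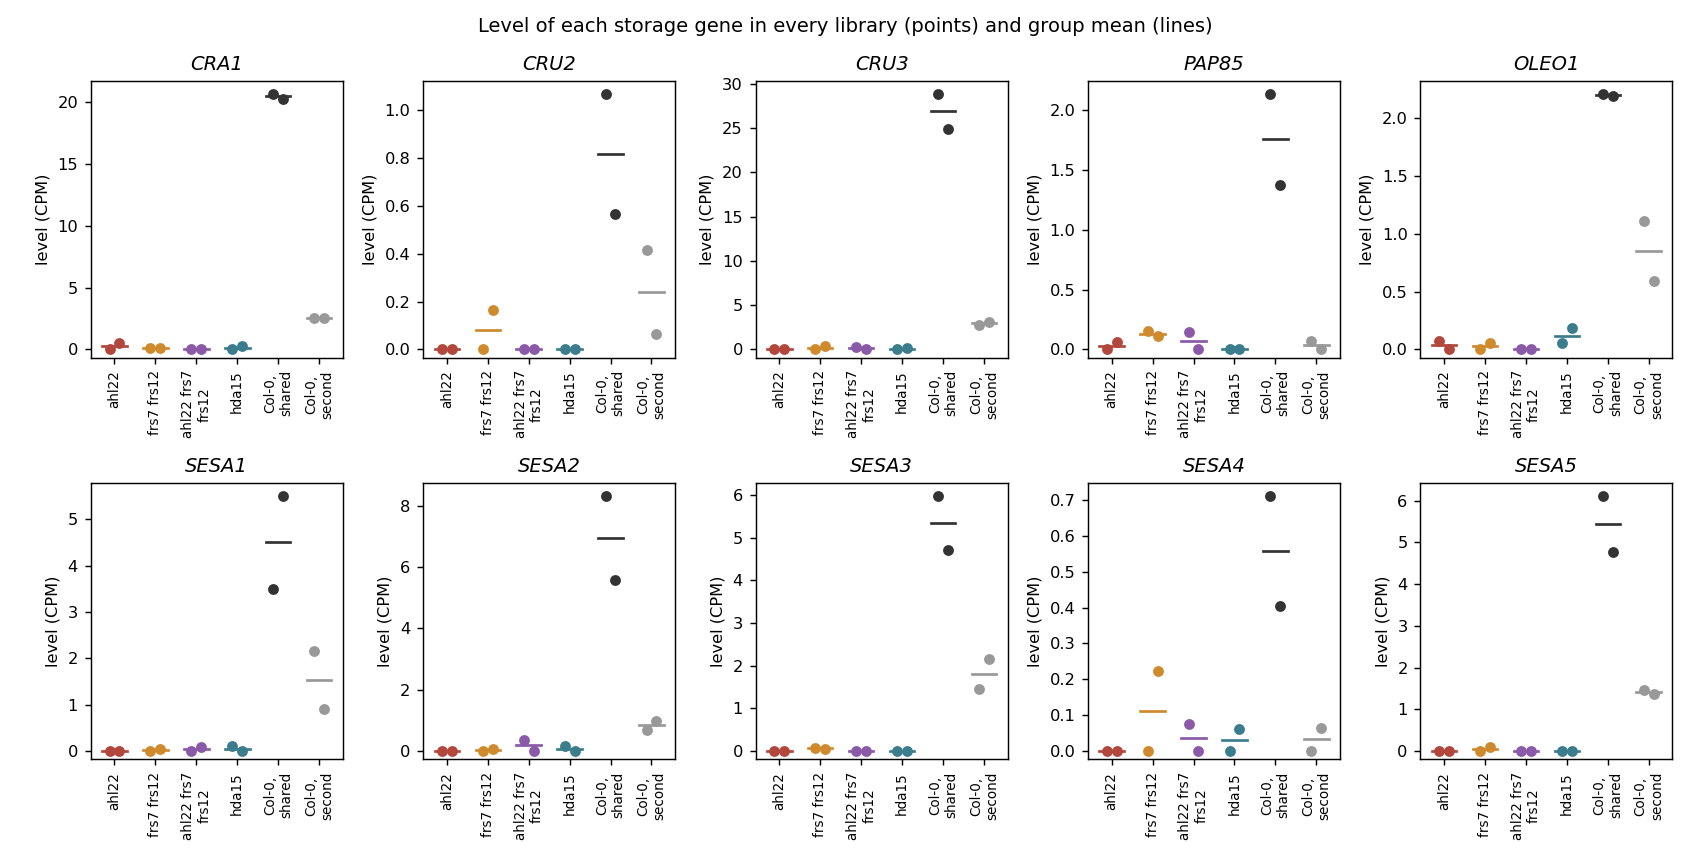
Level of each gene in CPM (vertical axes, each gene on its own scale) in every library, with 2 points for each mutant and each Col-0 pair and a line at the mean. The shared Col-0 pair is above all 8 mutant libraries for every gene, and the mean of the second Col-0 pair is in between except for PAP85 and SESA4.

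Summed over the 10 genes, the levels were 0.353 ± 0.298 CPM in ahl22, 0.885 ± 0.713 in frs7 frs12, 0.454 ± 0.524 in the triple mutant and 0.489 ± 0.248 in hda15, against 74.9 ± 6.56 in the shared and 12.3 ± 0.555 in the second Col-0 pair (SD, n = 2 each). The log2 ratio against the Col-0 pair of the same table was -7.73 in ahl22, -6.40 in frs7 frs12, -4.76 in the triple mutant and -7.26 in hda15. In counts, the 8 mutant libraries held 70 reads of these genes and the 4 Col-0 libraries 2347, with 25 in the highest mutant library and 181 in the lowest Col-0 library. The highest mutant library was frs7 frs12 replicate 2, which had a read on all 10 genes, whereas the others had a read on 1 to 4. Without it, the log2 ratio of frs7 frs12 was -7.62. The triple mutant ratio was -7.20 without replicate 1 of that mutant, which held 11 of its 12 reads. In whole seedlings, fewer cells with these transcripts and less of them per cell cannot be told apart.

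**Figure D3:**
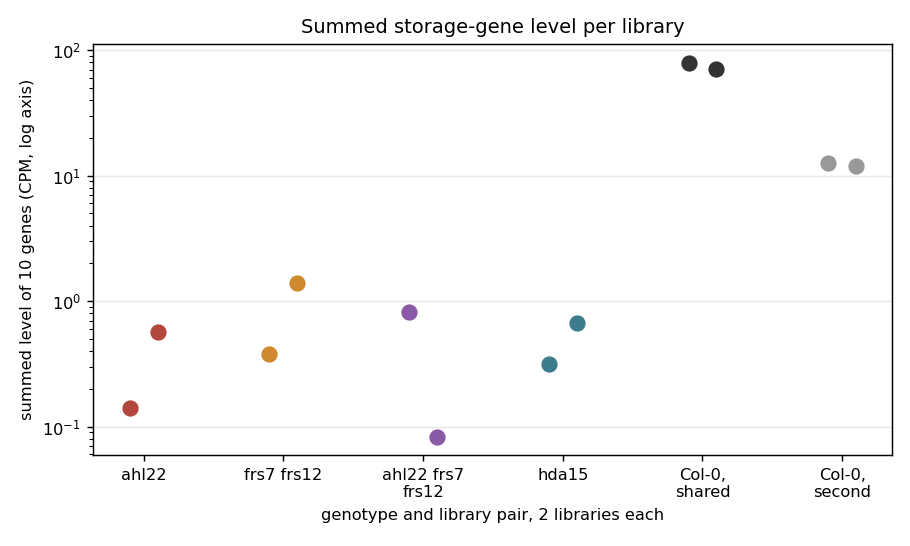
Summed level of the 10 genes in CPM, on a log axis, with 1 point per library and 2 libraries per group. The 8 mutant libraries lie between 0.0831 and 1.39 CPM, all below the 4 Col-0 libraries at 11.9 to 79.6 CPM.

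Against the Col-0 pair of the same table, 8 members passed the filter on low counts in ahl22, frs7 frs12 and hda15 and 5 in the triple mutant, and these were called lower by edgeR, that is, with a log2 fold change under -1 at an adjusted p under 0.05. CRU2 and SESA4 did not pass in any of them, nor did PAP85, OLEO1 and SESA2 in the triple mutant. Over all genes tested, 11.2% were called lower and 7.07% higher in ahl22, 11.7% and 7.18% in frs7 frs12, 0.903% and 0.548% in the triple mutant, and 3.65% and 4.05% in hda15. Without any filter or test, all 10 members were lower in both mutant libraries than in both libraries of the own pair in ahl22, frs7 frs12 and hda15, and 8 in the triple mutant. Among all genes with a read, the share lower in this way was 35.9% in ahl22, 32.0% in frs7 frs12, 21.5% in the triple mutant and 28.8% in hda15. Because the genes were chosen with these contrasts known, nothing is read from these numbers.

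The Col-0 pairs differed from each other in the storage genes. All 10 genes were lower in both libraries of the second pair than in both of the shared pair, as were 33.4% of all genes with a read, and their sum was 6.14-fold lower (95% counting interval 5.49 to 6.88). The 8 members that passed the filter were called lower, as were 9.92% of all genes, with 6.61% called higher. By pooled counts, the factor differed between the genes. CRU3 was 9.09-fold lower (7.27 to 11.5), CRA1 8.09-fold (6.34 to 10.4) and SESA2 8.36-fold (5.49 to 13.2), while SESA1 was 2.92-fold (2.05 to 4.22), SESA3 2.95-fold (2.14 to 4.12), SESA5 3.88-fold (2.73 to 5.61) and OLEO1 2.61-fold lower (1.60 to 4.35). The intervals of the CRU3, CRA1 and SESA2 group lie above those of SESA1 and SESA3, the neighbours of SESA2 in the array. They cover counting error only and leave out the spread between libraries. SESA1 had 3.49 and 5.51 CPM in the shared and 2.16 and 0.918 in the second pair. SESA2 had 8.33 and 5.59 in the shared and 0.695 and 0.984 in the second. With 2 libraries a pair, a difference in factor between these genes was not tested. PAP85 was 52.8-fold lower (9.02 to 2129), with 1 count left. The 12S globulins took 46.8% of the reads of the 10 genes in the second pair (exact 95% interval 41.6 to 52.1), against 64.2% in the shared pair (62.1 to 66.3), and the 2S albumins took 46.0% (40.8 to 51.3), against 30.5% (28.5 to 32.6).

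**Figure D4:**
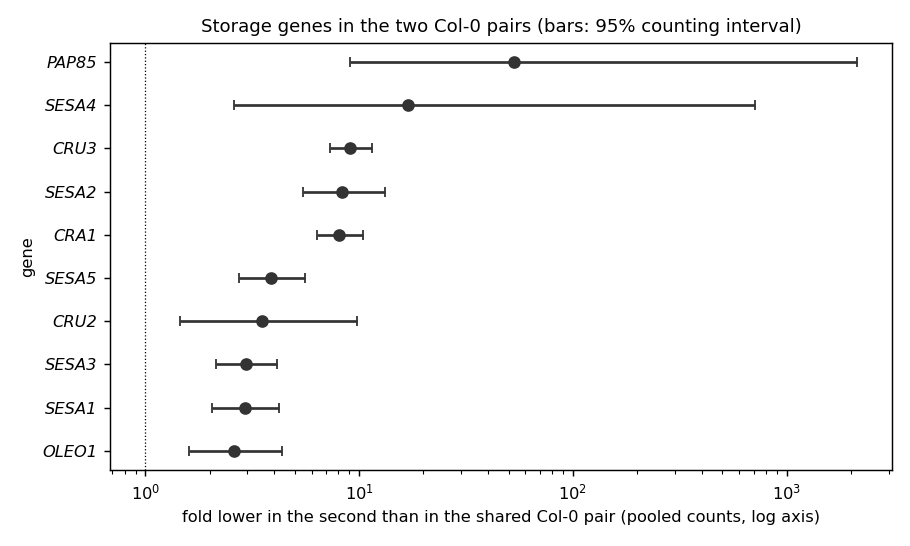
How many fold lower each gene was in the second than in the shared Col-0 pair, from the pooled counts of 2 libraries each, on a log axis, with 95% counting intervals as bars. All 10 genes lie to the right of 1, between 2.61-fold for OLEO1 and 52.8-fold for PAP85.

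Levels were compared between the genes per exon length, as RPKM. In the second Col-0 pair, SESA3 (2.36 ± 0.648), SESA1 (2.19 ± 1.24), SESA5 (1.71 ± 0.0707) and CRU3 (1.65 ± 0.144) came first and each overlapped the next (SD, n = 2). In the shared pair, CRU3 (14.9 ± 1.56) was first and did not overlap CRA1 (10.97 ± 0.147). CRA1, SESA2 (9.47 ± 2.64), SESA3 (6.96 ± 1.18), SESA5 (6.57 ± 1.14) and SESA1 (6.40 ± 2.03) each overlapped the next in this order. OLEO1 followed at 2.42 ± 0.0149, apart from both neighbours in the order, and PAP85 (1.04 ± 0.316), SESA4 (0.812 ± 0.315) and CRU2 (0.501 ± 0.217) were last and overlapped.

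Exchanging the Col-0 pairs changed the size of the difference but left most members apart. Against the second pair, the sum was 33.5-fold lower in ahl22 (counting interval 18.5 to 67.7), 12.7-fold lower in frs7 frs12 (8.75 to 19.1) and 25.7-fold lower in hda15 (15.8 to 44.6). Against its own, second pair it was 25.9-fold lower in the triple mutant (14.6 to 50.6). The libraries did not overlap, with the mutant lower, for 8 members in ahl22, 7 in frs7 frs12, 8 in the triple mutant and 8 in hda15, while 24.4% of all genes with a read were lower in this way in ahl22, 20.3% in frs7 frs12 and 29.6% in hda15. SESA4 overlapped in all these comparisons, CRU2 overlapped in frs7 frs12, and PAP85 overlapped in ahl22, the triple mutant and hda15 and was above the second pair in frs7 frs12 (2 and 2 counts against 1 and 0). Over all genes, 0.389% were called lower and 0.368% higher in ahl22, 1.08% and 0.65% in frs7 frs12, and 3.33% and 8.09% in hda15 against this pair. The triple mutant libraries had 12.2% called lower and 8.21% higher against the shared pair, where all 10 members and 36.0% of all genes with a read were lower without overlap.

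Genes that act with the storage proteins were examined next, as 110 related genes in 8 lists written from general knowledge of seed maturation and reserve use. Of 82 tested against the shared Col-0 pair, 23 were called lower and 1 higher in ahl22, where 11.2% and 7.07% of all genes were. In frs7 frs12, 24 of 80 were called lower, where 11.7% of all genes were called lower and 7.18% higher. In hda15, 16 of 83 were called lower and 1 higher, where 3.65% and 4.05% of all genes were. The 16 include HDA15 itself, the mutated gene. None was called higher in frs7 frs12 by edgeR or DESeq2, and 7 were higher at an unadjusted p below 0.05. Against the second pair, 3 of 67 were lower in the triple mutant, and none was called higher by either tool (4 at an unadjusted p below 0.05). Over all genes, 0.903% were called lower and 0.548% higher in this comparison by edgeR. The median log2 fold change of the tested related genes was -0.52 in ahl22, -0.55 in frs7 frs12, -0.06 in the triple mutant and -0.34 in hda15, while the medians over all genes tested lay within 0.024 of 0. The second Col-0 pair itself had 20 of 82 lower than the shared pair (9.92% of all genes), with a median of -0.52. Fewer related genes passed the filter against the second pair, 70 in ahl22, 68 in frs7 frs12 and 73 in hda15. Since some pass only through the shared pair, the calls and medians against that pair lean toward lower beforehand. Of the 12 related genes called lower than the shared pair in all 4 mutants, 9 were also called lower in the second Col-0 pair.

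Of 5 other oil body genes tested against the shared Col-0 pair, 3 were called lower in each of ahl22, frs7 frs12 and the triple mutant. In hda15 and in the second Col-0 pair, 2 were. Over all genes, 11.2% were called lower than the shared pair in ahl22, 11.7% in frs7 frs12 and 12.2% in the triple mutant. The shares were 3.65% in hda15 and 9.92% in the second Col-0 pair. In the late embryogenesis list of 21 genes, 8 were called lower than the shared pair in each mutant, and 7 in the second Col-0 pair. Of the list, 11 genes were tested in ahl22, 9 in frs7 frs12, 10 in the triple mutant and 12 in hda15. In the second Col-0 pair, 11 were. Some genes pass the filter only through the shared pair, as PER1 does, so these calls lean toward lower beforehand. Against the second pair, 1 of 5 tested was called lower in ahl22, 1 of 3 in frs7 frs12 and 1 of 3 in the triple mutant. In hda15, 0 of 6 were called lower and 1 higher. The dehydrin RAB18 had 17.6 and 15.5 CPM in ahl22, 10.3 and 11.2 in frs7 frs12, 9.97 and 6.40 in the triple mutant and 12.1 and 12.03 in hda15, against 37.3 and 33.1 in the shared and 15.1 and 13.4 in the second Col-0 pair. RAB18 fell by 1.10 on the log2 scale in ahl22 (standard error 0.118, adjusted p = 4.0e-10, edgeR) against the shared pair, and its value of 0.24 against the second pair did not pass (adjusted p = 0.41, edgeR). A storage-type cupin gene, AT1G07750, had 27.0 and 29.3 CPM in ahl22 and 36.3 and 36.3 in frs7 frs12, against 79.0 and 77.9 in the shared and 38.0 and 31.9 in the second Col-0 pair, and 98.4 and 85.2 CPM in hda15. The peroxiredoxin PER1 had 4 and 3 counts in ahl22, 0 and 0 in frs7 frs12, 1 and 0 in the triple mutant and 1 and 3 in hda15, against 33 and 20 in the shared and 6 and 3 in the second Col-0 pair. The oleosin OLEO2 had 2 and 11 counts in hda15 and at most 3 in the other mutant libraries, against 49 and 28 in the shared and 7 and 7 in the second pair. Its log2 fold change against the shared pair was -4.36 in ahl22 (standard error 0.62, adjusted p = 1.9e-07, edgeR) and -2.95 in hda15 (standard error 0.57, adjusted p = 0.0014, edgeR).

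In the mutants of AHL22, FRS7 and FRS12, 3 related genes were called lower against both Col-0 pairs, the same genes in each of the 3 mutants, namely ICL, M17 and PASPA3. Against the second pair, 70 related genes were tested in ahl22, 68 in frs7 frs12 and 67 in the triple mutant. Of all genes, 0.389%, 1.08% and 0.903% were called lower there. The share of all genes called lower against both pairs is not given, and both comparisons use the same mutant libraries. ICL, the isocitrate lyase of the glyoxylate cycle that turns fatty acid carbon into sugar, had 5.17 and 3.01 CPM in ahl22, 3.27 and 1.67 in frs7 frs12, 5.47 and 3.49 in the triple mutant and 17.2 and 15.0 in hda15, against 27.8 and 25.9 in the shared and 27.5 and 38.0 in the second Col-0 pair. The 6 libraries of the first 3 mutants did not overlap either pair. Between the Col-0 pairs, ICL missed the threshold on the adjusted p (log2 fold change 0.29 of the second over the shared pair, standard error 0.146, adjusted p = 0.12, edgeR), whereas M17 was called lower in the second pair (-1.37) and PASPA3 missed only the fold threshold (-0.98). The log2 fold changes of ICL against the same-table pair were -2.74 in ahl22 (standard error 0.175, adjusted p = 3.7e-16), -3.50 in frs7 frs12 (standard error 0.215, adjusted p = 2.6e-12) and -2.87 in the triple mutant (standard error 0.214, adjusted p = 2.5e-06), by edgeR's quasi-likelihood test. In hda15 that of ICL was -0.74 (standard error 0.159, adjusted p = 0.0030, edgeR) and did not pass the fold threshold, while against the second pair it was -1.02.

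M17, a late embryogenesis gene, had 7 and 13 counts in ahl22, 4 and 3 in frs7 frs12, 0 and 3 in the triple mutant and 35 and 29 in hda15, against 90 and 65 in the shared and 37 and 30 in the second Col-0 pair. Against the second pair its log2 fold change was -1.74 in ahl22 (adjusted p = 0.047), -3.27 in frs7 frs12 (adjusted p = 0.0049) and -4.17 in the triple mutant (adjusted p = 0.0068), all by edgeR. In the triple mutant, M17 missed the threshold without replicate 1 of the mutant (adjusted p = 0.099, edgeR). PASPA3, an aspartic protease, had 1.56 and 2.32 CPM in ahl22, 1.60 and 1.00 in frs7 frs12 and 1.65 and 2.41 in the triple mutant, against 10.5 and 10.4 in the shared and 5.91 and 4.66 in the second Col-0 pair. In hda15 it had 4.66 and 3.45 CPM. In the triple mutant the call of PASPA3 against the second pair (log2 fold change -1.40, adjusted p = 0.024, edgeR) was lost with DESeq2 (adjusted p = 0.078), which called ICL and M17 lower. It was also lost without replicate 1 of the second pair (adjusted p = 0.074, edgeR) and without either library of the triple mutant (adjusted p = 0.20 and 0.071, edgeR). Of the vacuolar processing enzymes, which cleave storage proteins, GAMMA-VPE was at 49.1 and 44.8 CPM in ahl22, against 116 and 109 in the shared and 53.0 and 42.2 in the second Col-0 pair. It was thus lower than the shared pair only (log2 fold change -1.27, adjusted p = 2.6e-16, edgeR, whereas it was 0.00 with an adjusted p of 1.0 against the second pair).

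**Figure D5:**
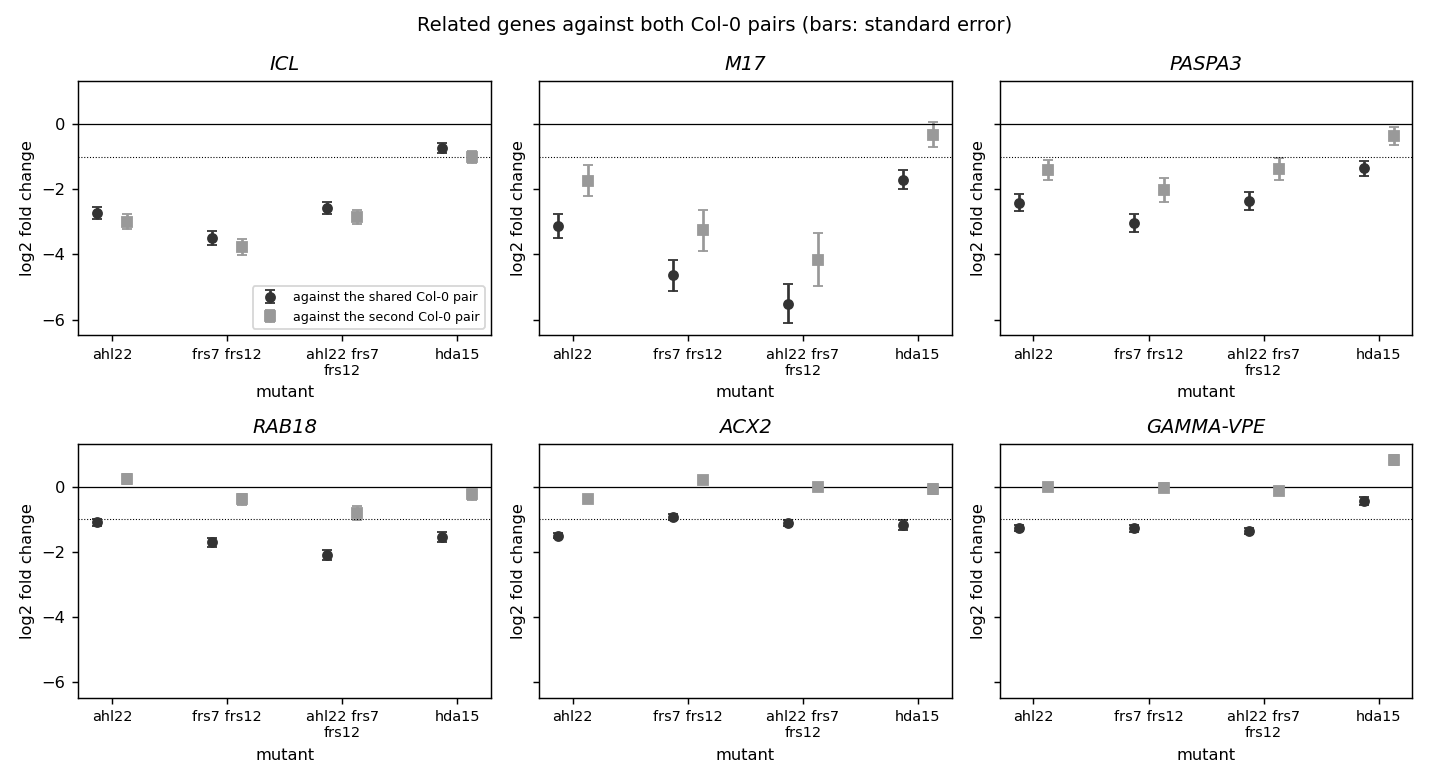
Log2 fold change of 6 related genes in the 4 mutants (horizontal axis), against the shared Col-0 pair (circles) and against the second Col-0 pair (squares), with the standard error as bars; the dotted line is at -1. ICL, M17 and PASPA3 lie below -1 against both pairs in every mutant but hda15, and RAB18, ACX2 and GAMMA-VPE lie above -1 against the second pair in all 4 mutants.

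The regulators of seed maturation were at low counts. ABI3 had 4 and 0 counts in ahl22, 3 and 3 in frs7 frs12, 0 and 0 in the triple mutant and 2 and 2 in hda15, against 11 and 14 in the shared Col-0 pair and none in the second. Against the shared pair it was called lower in all 4 mutants, with log2 fold changes of -2.76 in ahl22 (adjusted p = 0.0049), -2.25 in frs7 frs12 (adjusted p = 0.011) and -3.00 in hda15 (adjusted p = 0.0064) by edgeR. ABI3 passed the filter on low counts only through the shared pair, so these calls lean toward lower beforehand. With DESeq2 these calls were lost in ahl22 (adjusted p = 0.063) and frs7 frs12 (adjusted p = 0.12), and no adjusted p was given for hda15. Without replicate 2 of the shared pair they were lost by edgeR too, at an adjusted p of 0.11 in ahl22, 0.23 in frs7 frs12 and 0.098 in hda15. The second Col-0 pair had 363 reads of the storage genes and no ABI3 read. ABI3 had few counts even in the shared pair, and its part in the storage gene levels was not tested. ABI5 had 42 and 36 counts in ahl22, 20 and 39 in frs7 frs12, 11 and 20 in the triple mutant and 15 and 19 in hda15, against 40 and 37 in the shared and 18 and 11 in the second Col-0 pair. Only hda15 passed the threshold against its own pair (log2 fold change -1.61, standard error 0.39, adjusted p = 0.0072, edgeR). Against the second pair, ABI5 in hda15 was at -0.03 (adjusted p = 0.97, edgeR). The second Col-0 pair was itself called lower than the shared pair for ABI5 (-1.57, adjusted p = 0.0084, edgeR). So was the triple mutant (-1.25, adjusted p = 0.017, edgeR). FUS3 had at most 8 counts, LEC2 at most 6 and LEC1 at most 2 in any library, which gives no direction. Of the repressors that keep embryo genes silent after germination, VAL1 had log2 fold changes of -0.33 in ahl22, -0.63 in frs7 frs12, -0.08 in the triple mutant and -0.19 in hda15, and the chromatin remodeller PKL 0.24, -0.06, -0.13 and -0.30, none past the fold threshold. In that list of 20 genes, BRM in frs7 frs12 (log2 fold change -1.003) and HDA15 itself in hda15 were called lower against the same-table pair.

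In the list of oil breakdown and glyoxylate genes, 12 were tested against the same-table pair. Of these, 4 were called lower in ahl22 (11.2% of all genes) and 2 in frs7 frs12 (11.7%). In the triple mutant 1 was (0.903%), and in hda15 1 was (3.65%). The second Col-0 pair had 3 of 12 called lower than the shared pair (9.92% of all genes). Against the second pair, 1 of 12 was called lower in each of ahl22, frs7 frs12 and hda15 (0.389%, 1.08% and 3.33% of all genes). The acyl-CoA oxidase ACX2 had 39.4 and 41.5 CPM in ahl22, against 107 and 122 in the shared and 50.1 and 55.9 in the second Col-0 pair. The malate synthase MLS, the partner of ICL in the cycle, had 5.59 and 6.39 CPM in ahl22, against 12.04 and 14.2 in the shared and 8.62 and 13.6 in the second Col-0 pair. MLS fell by 1.13 on the log2 scale in ahl22 against the shared pair (adjusted p = 2.5e-06, edgeR), and its value of -0.87 against the second pair missed the fold threshold.

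The genes beside the members by position were 14 neighbouring genes, an added list chosen after the data had been seen, of which 10 or 11 were tested in each comparison. Against the shared pair 1 of 10 was called lower in ahl22, where 11.2% of all genes were, and 1 of 10 higher in hda15, where 4.05% were. AT4G28530, next to CRU3, had 2 and 4 counts in ahl22, against 16 and 10 in the shared pair (log2 fold change -2.26, adjusted p = 0.0075, edgeR). This call was lost with DESeq2 (adjusted p = 0.083) and without replicate 1 of either group (adjusted p = 0.080 without that of ahl22 and 0.18 without that of the pair, edgeR). AT4G28530 was also called lower in the second Col-0 pair, with 1 and 3 counts (log2 fold change -2.79, adjusted p = 0.0096, edgeR), so that ahl22 and the second pair together were too low for it to be tested. In hda15, AT5G44130, next to CRA1, was higher (329 and 293 CPM, against 136 and 124 in the shared pair). None was called in frs7 frs12 or in the triple mutant against the same-table pair by edgeR or DESeq2, and 5 and 0 were lower and 1 and 1 higher at an unadjusted p below 0.05. The median log2 fold change of the tested neighbours was -0.27 in ahl22, -0.31 in frs7 frs12, -0.05 in the triple mutant and 0.20 in hda15.

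Markers of other tissues moved between the libraries too. The 10 shoot markers had a read in every library and 9 or 10 of the 10 root markers did. Summed root markers were at 1533 and 1548 CPM in ahl22, 1128 and 1139 in frs7 frs12, 1228 and 1190 in the triple mutant and 2828 and 3167 in hda15, against 3269 and 3458 in the shared and 2512 and 1663 in the second Col-0 pair. PYK10, a beta-glucosidase of the root, took 87.2% to 97.2% of these sums. The other 9 root markers summed to 44.9 and 45.8 CPM in ahl22, 49.7 and 52.2 in frs7 frs12, 51.9 and 45.9 in the triple mutant and 293 and 330 in hda15, against 416 and 441 in the shared and 73.0 and 45.8 in the second Col-0 pair. Against the shared pair, 9 of the 10 root markers were called lower in ahl22 (median log2 fold change -4.07), 8 in frs7 frs12 (-2.95), 9 in the triple mutant (-2.97) and 9 in the second Col-0 pair (-3.50). In hda15 none of the 10 was called lower by edgeR or DESeq2 (6 at an unadjusted p below 0.05, median -0.50). Against the second pair, none of 7 tested was called lower in ahl22 by edgeR (2 at an unadjusted p below 0.05, median -0.42), 1 of 7 was in frs7 frs12 (-0.29), none of 7 was in the triple mutant by edgeR or DESeq2 (2 at an unadjusted p below 0.05, -0.35), and 7 of 9 were called higher in hda15 (3.07). Over all genes, 11.2% were called lower than the shared pair in ahl22, 11.7% in frs7 frs12 and 12.2% in the triple mutant. In the second Col-0 pair 9.92% were, and 8.09% were called higher in hda15 against that pair. The root markers thus moved with the storage genes between the Col-0 pairs and, against the shared pair, in the mutants other than hda15. Summed shoot markers were between 82135 and 123880 CPM in all 12 libraries. Of the 6 seed coat and endosperm markers, 2 to 6 had a read, and MUM4 made up most of their sum, which was 59.3 and 57.9 CPM in ahl22, 62.9 and 62.4 in frs7 frs12, 63.5 and 56.4 in the triple mutant and 58.9 and 72.7 in hda15, against 41.5 and 39.6 in the shared and 61.3 and 59.8 in the second Col-0 pair. MUM4, which acts in seed coat mucilage, was lowest in the shared Col-0 pair (35.2 and 34.0 CPM), where the storage genes were highest. It took 84.9% and 85.7% of the sum in the shared pair and 96.8% and 98.0% in the second. In the mutant libraries it took 98.7% to 99.9%. The sum thus hardly reflects the other markers of the list, whose part was largest in the shared pair. EPR1, an extensin-like gene of the endosperm, had 1 and 6 counts in ahl22, 1 and 1 in frs7 frs12, 2 and 1 in the triple mutant and 1 and 11 in hda15, against 76 and 65 in the shared and 22 and 10 in the second Col-0 pair. The tannin genes BAN and TT12 and the seed coat laccase TT10 had at most 6 counts in any library. The part of these tissues in the storage gene levels was not tested.

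The genes whose pattern was most like that of the members were sought among 19339 genes with a mean of at least 1 CPM in some group, by Pearson's r of log2(CPM + 1) with the mean of the 10 members over 12 libraries. These libraries fall into 6 groups, 2 libraries each, and no p is given. The 10 highest were AT2G05580 (0.986), TED7 (0.982), NSP2 (0.979), AT1G68250 (0.979), BXL1 (0.978), ACBP3 (0.977), BGLU19 (0.976), AT5G35660 (0.975), EPR1 (0.971) and AT2G03240 (0.964). AT1G68250, AT2G05580 and AT5G35660 had at most 5 counts in any mutant library, and 74 and 42, 35 and 38, and 33 and 29 counts in the shared Col-0 pair. BXL1, a cell wall glycosidase, stayed expressed in all groups, with means of 199 CPM in ahl22, 242 in frs7 frs12, 206 in the triple mutant and 237 in hda15, against 729 in the shared and 418 in the second Col-0 pair.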

How the data were processed

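RNA-seq of whole seedlings was deposited as 4 tables of raw counts per gene (27416 genes, 26719 of them in the TAIR10.1 annotation). Per the labels and the methods, the authors used HISAT2 on the TAIR10 genome for paired-end reads and Subread for the counts per gene. The strand setting is not given in the sources used here. The tables hold 12 distinct libraries, since the ahl22, frs7 frs12 and hda15 tables carry the same Col-0 pair. Col-0 in the ahl22 frs7 frs12 table is another pair, in columns numbered 1 and 2 that match no labelled sample, whereas the labels list 1 pair of Col-0 RNA samples. The sources differ on growth substrate and library kit.

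Each mutant was tested against the Col-0 pair of its table (its own pair) by edgeR 4.0.16 (R 4.3.3) with TMM factors, filterByExpr, the quasi-likelihood test and Benjamini-Hochberg adjustment over all genes tested. A gene was called at an adjusted p below 0.05 and an absolute log2 fold change above 1. Standard errors are on the log2 scale. CPM used TMM factors over the 12 libraries, and RPKM added the exon length. Ratios of pooled counts have exact conditional binomial 95% intervals, and counts of 0 were set to a floor of 3 counts per library. Fitted values of single members came from a fit without the filter. DESeq2 1.42.0 and other settings were tried as alternatives. The fit was tested on simulated data. Sequences and gene models were taken from RefSeq, TAIR10.1, and compared with blastn 2.17.0. Python 3.11.15, pandas 2.3.3, scipy 1.17.1 and matplotlib 3.10.9 were used.

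The members and the lists were chosen with earlier results of these data known. All members were named, with the mutated genes, ABI3, FUS3, LEC1, LEC2, ABI5, VAL1 and PKL whatever their values, and up to 3 called genes of a list by size of change (replicates without overlap and a mean of at least 1 CPM in the higher group). Not every gene that met this last rule was named, among them RD29B, NCED3, ALPHA-VPE, LEA18 and HSD1. The list of abscisic acid genes was not described on its own. RAB18, GAMMA-VPE, the neighbours and the genes set against both Col-0 pairs were chosen after their values had been seen. The 10 genes most alike were taken by r.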

Additional observations from a re-analysis of the deposited data

Results flagged for a closer look

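In the 4 Col-0 libraries, ICL had 1 library apart from the others, a library of the second Col-0 pair at 38.0 CPM, with a gap to the nearest of 0.843 of the whole range. RD29A likewise had 1 library of the second Col-0 pair apart, at 7.15 CPM, against 39.7 to 42.2 CPM in the others, with a gap of 0.929 of the range. Dixon's test at the 95% level marks about 5% of groups of 4 by chance.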

How the results depend on the processing

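The log2 ratio of the summed level kept its direction in all 40 alternative values, and 31 of them moved by less than the spread between replicates. With the mean of log2(CPM + 1) in place of the sum it was -2.41 in ahl22, -2.34 in frs7 frs12, -0.94 in ahl22 frs7 frs12 and -2.39 in hda15. With the other Col-0 pair as control it was -5.12 in ahl22, -3.79 in frs7 frs12, -7.37 in ahl22 frs7 frs12 and -4.65 in hda15. Leaving out 1 library at a time gave -9.05 to -7.05 in ahl22, -7.62 to -5.75 in frs7 frs12, -7.20 to -3.89 in ahl22 frs7 frs12 and -7.90 to -6.82 in hda15. For single members, the other Col-0 pair turned the fitted sign of SESA4 (1.63) and PAP85 (1.72) in frs7 frs12 and of SESA4 (-3.56) and PAP85 (-4.34) in ahl22 frs7 frs12, genes with 1 count in the second pair. The causes of these shifts were not tested.

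With the other Col-0 pair, 3 related genes were lower in ahl22, 3 in frs7 frs12, 27 in ahl22 frs7 frs12 and 3 in hda15. Of all genes, 0.389%, 1.08%, 12.2% and 3.33% were called lower in these comparisons. The 3 of hda15 include HDA15 itself, the mutated gene. Those called higher were 1 in ahl22, 1 in ahl22 frs7 frs12 and 5 in hda15. Without the filter on low counts, 6 were lower in ahl22 frs7 frs12 and 2 higher in hda15. Leaving out 1 library gave 21 to 30 lower in ahl22, 17 to 27 in frs7 frs12, 2 to 7 in ahl22 frs7 frs12 (7 without replicate 2 of the second Col-0 pair) and 13 to 20 in hda15, and 1 to 2 higher in ahl22, 0 to 1 in frs7 frs12, 0 in ahl22 frs7 frs12 and 1 to 2 in hda15.

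The replicate numbers did not pair the samples, with correlations of same-numbered deviations of -0.0053 for ahl22, 0.030 for frs7 frs12, -0.0059 for ahl22 frs7 frs12 (column numbers) and 0.099 for hda15. A fit with the replicate number as a block called 23 related genes lower in ahl22, 24 in frs7 frs12, 3 in ahl22 frs7 frs12 and 17 in hda15, and 2 higher in hda15 (1 without the block). With 2 libraries a group and at most 25 reads of the storage genes in a mutant library, differences among the mutants are limited by counting error.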

Other observations

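The second library of frs7 frs12 held reads on all 10 storage genes and, among the listed genes, 6 counts of BAN, 3 of TT12 and 2 of LEC1. No other library exceeded these counts, but replicate 1 of hda15 also had 2 of LEC1. LEC2 had 0 counts in this frs7 frs12 library and 6 in replicate 1 of the triple mutant. With 23804, this library also had the most genes with a read of all 12. The source of these few reads was not tested.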
